A study of Homo sapiens with 6 samples.

Results

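The genes described are 10 components of IRE1 signaling, ATF6 signaling and ER-associated degradation (ERAD): ERN1, XBP1, ATF6, ATF6B, EDEM1, HERPUD1, SYVN1, SEL1L, DERL1 and DERL2. They were taken by gene symbol from a given list, and all 10 were found among the 26255 genes of the deposited tables, each on a single row. RNA was sequenced from 22RV1, an established human castration-resistant prostate cancer cell line, after 24 h with the vehicle DMSO (n = 3) or with 10 nM bruceantin (BCT, n = 3). Cells of both groups grew in RPMI with 10% FBS, and the labels name no other difference than the agent. The comparison asks how BCT, a plant quassinoid, changed the transcripts of these genes. The libraries were made in triplicate, but nothing says that they came from separate cultures, so the p-values measure the spread between these libraries.

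IRE1, ATF6 and PERK are the sensors of the unfolded protein response, which adjusts the endoplasmic reticulum (ER) to its load of unfolded protein. IRE1, encoded by ERN1, is a kinase and ribonuclease of the ER membrane that excises a short stretch from XBP1 mRNA, and the shifted reading frame then encodes an active transcription factor. ATF6 leaves the ER under stress, is cut by proteases in the Golgi and releases its own transcription factor, and ATF6B is its paralog. ERAD returns misfolded proteins to the cytosol for ubiquitination and destruction by the proteasome. EDEM1 directs misfolded glycoproteins into this route, SYVN1 (HRD1) is the ubiquitin ligase of the membrane complex, SEL1L and HERPUD1 are its partners, and the derlins DERL1 and DERL2 belong to the channel. In secretory epithelia such as the prostate, these genes serve the folding and disposal of secreted proteins.

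The stretch that IRE1 removes is shown because the deposited values count XBP1 as a whole gene and so cannot tell its spliced form from its unspliced form. In GENCODE on GRCh37 it lies in exon 4 of 5 of transcript XBP1-201, within coding sequence, at chr22:29192116-29192141 on the minus strand. It measures 26 bases, which is not a multiple of the codon length, and transcript XBP1-202 lacks it. Because the first letters recur just after it, its ends could be placed a few bases further along. The stretch is in capitals, with 30 bases of XBP1-201 on either side in lower case, read 5′ to 3′ on the transcript strand.
XBP1-201: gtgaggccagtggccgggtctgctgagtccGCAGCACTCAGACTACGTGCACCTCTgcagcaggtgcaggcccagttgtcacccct

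ATF6 and XBP1 are known to bind the ER stress response element (ERSE), a CCAAT box and the letters CCACG held 9 bases apart, and its compact form ERSE-II, ATTGGNCCACG. Promoter sequences from RefSeq on GRCh38.p14, from 250 bases before to 50 after each start, were matched by symbol for 9 of the 10 genes, all but DERL1. XBP1 also had a second entry, at chr22:28800028-28800327, which held 0 ERSE and 0 ERSE-II. On both strands, the first entry of XBP1 held the only ERSE among them and HERPUD1 the only ERSE-II. These elements were found in 27 (0.0769%) and 19 (0.0541%) of the 35116 promoters of the table. The promoter of HERPUD1 and the first entry of XBP1 are printed from 250 to 31 bases before the start, with the element in capitals. HERPUD1 is at chr16:56931892-56932111 on the plus strand and XBP1 at chr22:28800600-28800819 on the minus strand.
HERPUD1: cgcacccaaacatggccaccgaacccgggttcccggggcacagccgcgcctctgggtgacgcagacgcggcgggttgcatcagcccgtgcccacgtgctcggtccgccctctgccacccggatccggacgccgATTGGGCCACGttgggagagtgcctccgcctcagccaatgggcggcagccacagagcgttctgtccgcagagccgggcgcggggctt
XBP1: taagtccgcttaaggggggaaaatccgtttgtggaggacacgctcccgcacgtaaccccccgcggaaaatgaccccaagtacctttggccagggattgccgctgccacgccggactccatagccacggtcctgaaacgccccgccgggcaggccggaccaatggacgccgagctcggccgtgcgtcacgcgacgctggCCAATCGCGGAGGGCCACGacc

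The shorter letters CCACG, which are part of both elements, were present on either strand in 5 of the 9 promoters (EDEM1, HERPUD1, SEL1L, SYVN1 and XBP1) and in 38.1% of all promoters. They were not in those of ERN1, ATF6, ATF6B and DERL2. The letters TGACGTGG, the core of the unfolded protein response element, were in 0.729% of all promoters and in none of the 9. Of the 5 genes with CCACG, XBP1 had higher values with BCT and the other 4 lower values as deposited, of which HERPUD1 and SYVN1 changed sign under another scaling. A match of letters is a description and no evidence that a factor was bound.

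The deposited values are FPKM, fragments scaled to transcript length and to the mapped fragments of the library, so levels of different genes can be set side by side. FPKM holds no read counts. Relative to DMSO replicate 1, the most common ratio among genes of low value put the depth of the libraries at 0.871 to 1 with DMSO and at 1.05 to 1.13 with BCT. The FPKM sum of a library was 1169649 to 1572321 with DMSO and 757534 to 799838 with BCT, and MIR6087 alone took 43.5% to 55.3% of it with DMSO and 31.7% to 32.5% with BCT. The values were used as deposited, and the effect of other scalings is given below. All 7 luminal prostate markers, among them KRT8, KRT18 and HOXB13, had means of at least 1 FPKM, and the 3 basal and 3 endothelial markers did not. Of the fibroblast markers COL1A1 and of the leukocyte markers CD68 passed 1 FPKM, while COL1A2, DCN and PTPRC were below 0.1 FPKM on average. The summed level of the luminal markers was 822.1 to 833.7 FPKM with DMSO and 1808 to 1991 FPKM with BCT, of which KRT8 and KRT18 made up most. The 7 markers did not move together: KRT8 (1.17 on the log2 scale) and KRT18 (1.72) were called higher, KLK2 (-1.61) and KLK3 (-2.95) lower, and the other 3 were not called. The sums of the 4 fibroblast markers (2.52 to 2.66 and 5.83 to 6.97 FPKM) and of the 3 leukocyte markers (2.08 to 3.16 and 4.99 to 8.27 FPKM) were also higher with BCT. The part of these markers in the results was not tested.

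Of the 10 genes, 5 passed both thresholds, and they went in both directions. The sensor genes ERN1 and ATF6 rose, and ATF6B, SEL1L and EDEM1 fell. Changes were computed on log2(FPKM + 0.1), which slightly understates the change of a low gene such as ERN1, and tested with limma over the 12729 genes whose mean reached 1 FPKM. In bulk RNA, a smaller share of expressing cells and less RNA per cell cannot be told apart. A gene was called when its absolute log2 fold change exceeded 0.85 and its FDR was below 0.05, the thresholds given with the study's results. All 10 genes passed the filter, 3 were called lower and 2 higher, beside 17.8% of all tested genes called lower and 13.9% called higher. The FDR alone was passed by all 10, 6 lower and 4 higher as deposited, but 82.1% of all tested genes passed it. For each of the 10 genes the ranges of BCT and DMSO samples were apart, as they were for 85.3% of the genes tested. The median log2 fold change was -0.43 over the 10 genes and -0.038 over all tested genes.

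**Figure D1:**
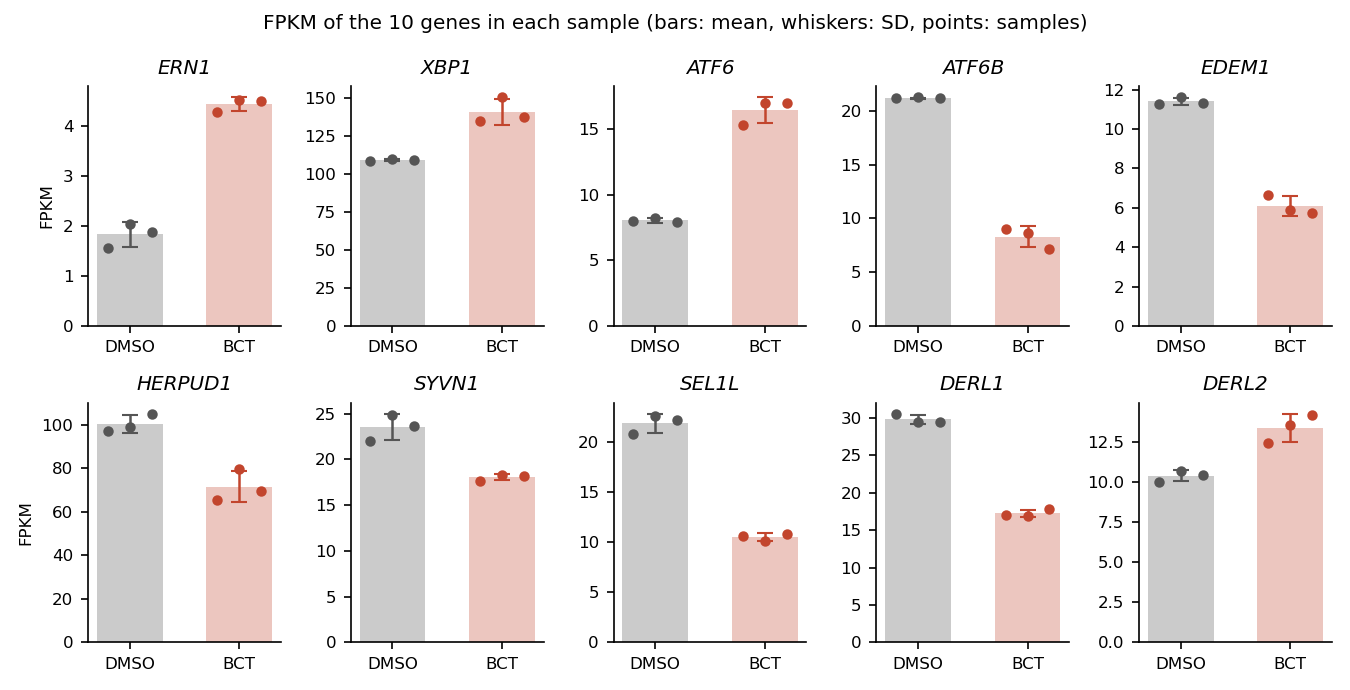
FPKM of the 10 genes in each sample, with DMSO in grey and BCT in red; bars are means, whiskers SD and points single samples (n = 3 a group), and each panel has its own axis from 0. In every panel all BCT points lie on one side of all DMSO points: above in ERN1, XBP1, ATF6 and DERL2, below in the other 6, of which HERPUD1 and SYVN1 turn to higher values when samples are rescaled to equal FPKM sums.

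ERN1 rose with BCT and was the lowest expressed of the 10 genes in both groups. Its level was 1.57, 2.05 and 1.88 FPKM in the DMSO samples and 4.28, 4.53 and 4.51 FPKM in the BCT samples. The lowest BCT sample was above the highest DMSO sample by more than the spread within either group. The log2 fold change was 1.24 (standard error 0.11, 95% interval 0.99 to 1.49, adjusted p = 1.2e-05), a 2.36-fold rise. The gene is listed on chromosome 17 of hg19 from 62120390 to 62207502 on the minus strand.

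XBP1, the substrate of IRE1, was the most abundant of the 10 transcripts and did not reach the fold threshold as deposited. The DMSO samples held 108.6, 109.7 and 109.1 FPKM and the BCT samples 134.4, 150.1 and 137.4 FPKM. The DMSO samples lay within about 1 FPKM of each other and every BCT sample was above them. The log2 fold change of 0.36 (95% interval 0.24 to 0.49, adjusted p = 0.00026), or 1.29-fold, passed the FDR, and the whole interval lay below the threshold of 0.85. With equal FPKM sums XBP1 was at 1.13 and called higher. How much of this transcript had lost the 26 bases printed above is not known from these values. XBP1 is listed on chromosome 22 from 29190548 to 29196560 on the minus strand.

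ATF6 rose, while its paralog ATF6B fell. The DMSO samples had 8.0, 8.26 and 7.89 FPKM of ATF6 and the BCT samples 15.3, 16.98 and 16.99 FPKM, which gave a log2 fold change of 1.02 (95% interval 0.88 to 1.16, adjusted p = 1.8e-06). The BCT samples were about 2.02-fold above the DMSO samples and the groups were far apart beside their spread. ATF6B had 21.2, 21.3 and 21.2 FPKM in the DMSO samples against 9.01, 8.68 and 7.18 FPKM in the BCT samples. Its log2 fold change of -1.35 (95% interval -1.54 to -1.16, adjusted p = 2.1e-06), a 2.55-fold fall, was the largest of the 10 in size as deposited. With equal FPKM sums ATF6B was at -0.59 and not called. ATF6 lies on chromosome 1 from 161736034 to 161933860 on the plus strand. ATF6B belongs to the MHC region and is listed in the files not on the main chromosome 6 but on an alternative haplotype contig of it, from 3462873 to 3475845, and how fragments that match several copies of the region were counted is not given in the sources used here. Of the 105 tested genes listed on haplotype contigs of chromosome 6, 13 were called lower and 17 higher, beside 17.8% and 13.9% of all tested genes. Their median log2 fold change was 0.040. These counts do not show how fragments of ATF6B itself were counted.

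**Figure D2:**
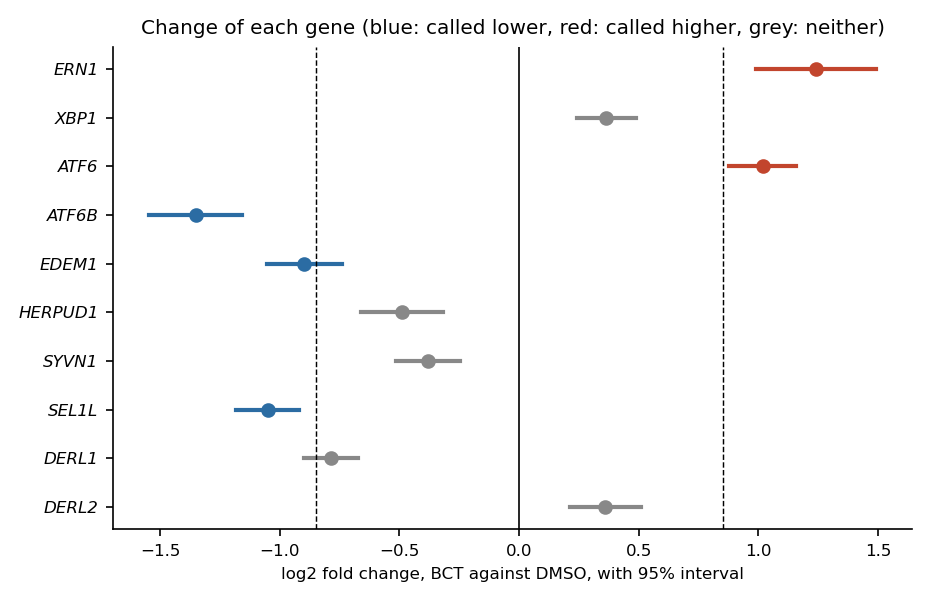
Log2 fold change of each gene in BCT against DMSO samples, as points, with limma's 95% intervals as lines, and with dashed lines at the thresholds of -0.85 and 0.85. ERN1 and ATF6 lie wholly above the upper threshold and ATF6B and SEL1L wholly below the lower one, while the intervals of EDEM1 and DERL1 cross it.

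EDEM1, the mannosidase-like protein that marks misfolded glycoproteins for ERAD, fell. Its level was 11.3, 11.6 and 11.3 FPKM with DMSO and 6.65, 5.91 and 5.73 FPKM with BCT. The groups were well apart, and the BCT samples were 1.86-fold lower. Its change of -0.90 on the log2 scale (standard error 0.069, adjusted p = 5.5e-06) lay just past the threshold and its 95% interval, -1.06 to -0.74, included it. With a pseudocount of 1 in place of 0.1 the value was -0.81 and the gene was no longer called. With equal FPKM sums it was at -0.14 and did not pass the FDR (limma, adjusted p = 0.44). EDEM1 is listed on chromosome 3 from 5229359 to 5261650 on the plus strand.

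In the HRD1 ligase complex, SEL1L fell and the ligase itself and HERPUD1 shifted less. SEL1L, which holds the ligase and substrate together, went from 20.7, 22.5 and 22.2 FPKM in the DMSO samples to 10.6, 10.1 and 10.8 FPKM in the BCT samples. Its log2 fold change was -1.05 (standard error 0.057, 95% interval -1.18 to -0.92, adjusted p = 1.3e-06), a 2.07-fold fall. With equal FPKM sums SEL1L was at -0.29 and did not pass the FDR (limma, adjusted p = 0.094). SYVN1, the ubiquitin ligase, measured 22.0, 24.9 and 23.7 FPKM in the DMSO samples and 17.7, 18.3 and 18.2 FPKM in the BCT samples. The gap between the groups was larger than the spread within them, but the log2 fold change of -0.38 (95% interval -0.51 to -0.24, adjusted p = 0.00033) did not reach the threshold and turned positive when samples were rescaled to equal FPKM sums, to 0.39 with MIR6087 and 0.0057 without it. SEL1L lies on chromosome 14 from 81937891 to 82000205 and SYVN1 on chromosome 11 from 64888099 to 64902003, both on the minus strand. The files give the interval of SYVN1 also to its neighbors FAU, MRPL49 and MIR6751. FAU, a ribosomal protein gene on the same strand, averaged 1207 FPKM with DMSO and 1077 FPKM with BCT, far above SYVN1, and whether fragments of the neighbors entered the value of SYVN1 was not tested.

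HERPUD1, a membrane protein with a ubiquitin-like domain that joins the same complex, was the second most abundant of the 10 transcripts. Its values were 97.1, 98.8 and 104.9 FPKM under DMSO against 65.6, 79.4 and 69.6 FPKM under BCT. The BCT samples varied more than those of most of the other genes but all lay below the DMSO samples. The log2 fold change was -0.49 (standard error 0.075, 95% interval -0.66 to -0.32, adjusted p = 0.00031), which passed the FDR and not the fold threshold, and the value was positive after rescaling to the same FPKM sum. HERPUD1 lies on chromosome 16 from 56966002 to 56977793. XBP1 and HERPUD1, whose promoters are printed above with an ERSE or ERSE-II, had values on opposite sides of 0 as deposited but not after that rescaling, and neither was called as deposited.

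The 2 derlins differed in direction as deposited. DERL1 measured 30.6, 29.5 and 29.5 FPKM under DMSO and 17.1, 16.9 and 17.8 FPKM under BCT, with a change of -0.79 on the log2 scale (standard error 0.049, adjusted p = 2e-06). This was the value nearest to the threshold among the genes not called, and its 95% interval of -0.90 to -0.68 included it. With equal FPKM sums DERL1 was at -0.022 and did not pass the FDR (limma, adjusted p = 0.91). DERL2 measured 10.0, 10.7 and 10.4 FPKM under DMSO and 12.4, 13.5 and 14.1 FPKM under BCT. Its log2 fold change of 0.36 (95% interval 0.21 to 0.51, adjusted p = 0.00079) was of the same size as that of XBP1 and also passed only the FDR as deposited. With equal FPKM sums DERL2 was at 1.12 and called higher. DERL2 lies on chromosome 17 from 5374571 to 5389550 and DERL1 on chromosome 8 from 124025404 to 124054663.

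The order of the transcript levels changed with BCT below its top. With DMSO it ran from XBP1 (109.1 FPKM on average) and HERPUD1 (100.3) through DERL1 (29.9), SYVN1 (23.5), SEL1L (21.8) and ATF6B (21.2) to EDEM1 (11.4), DERL2 (10.4), ATF6 (8.05) and ERN1 (1.83). The samples of SYVN1 overlapped those of SEL1L, and those of SEL1L overlapped ATF6B, so these neighbors were not apart beyond their spread. With BCT, XBP1 (140.7 FPKM) and HERPUD1 (71.5) stayed first and second and ERN1 (4.44) last. In between came SYVN1 (18.1), DERL1 (17.3), ATF6 (16.4), DERL2 (13.4), SEL1L (10.5), ATF6B (8.29) and EDEM1 (6.09). Here SYVN1 overlapped DERL1 and DERL1 overlapped ATF6, while every other pair of neighbors was apart. ATF6 moved from the ninth to the fifth place and ATF6B from the sixth to the eighth.

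Ratios of paired genes within a sample do not move when that sample is scaled by a single factor, apart from the small pseudocount. The ratio of ATF6B to ATF6 was 2.65, 2.57 and 2.68 in the DMSO samples and 0.590, 0.511 and 0.423 in the BCT samples. ATF6B was thus the more abundant paralog in every DMSO sample and ATF6 in every BCT sample, with a 5.16-fold change of the ratio (log2 difference -2.37). The ratio of DERL2 to DERL1 was 0.328, 0.362 and 0.354 with DMSO and 0.729, 0.799 and 0.795 with BCT, a 2.22-fold change, and DERL1 remained the more abundant in all 6 samples. The ratio of SEL1L to SYVN1 fell short of equality in every sample, at 0.904 to 0.941 with DMSO and 0.549 to 0.600 with BCT. XBP1 exceeded ERN1 by 53.6 to 69.2 times with DMSO and by 30.5 to 33.2 times with BCT. In none of the 4 ratios did the groups overlap, but the groups were also apart in 85.3% of single tested genes. The share over other gene pairs was not computed. Each log2 change of a ratio is the difference between the changes of its genes given above, and adds no separate result. An exact two-sided permutation test gave p = 0.1 for each, also after adjustment over the 4 pairs, and this is the smallest p that 3 samples against 3 allow.

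**Figure D3:**
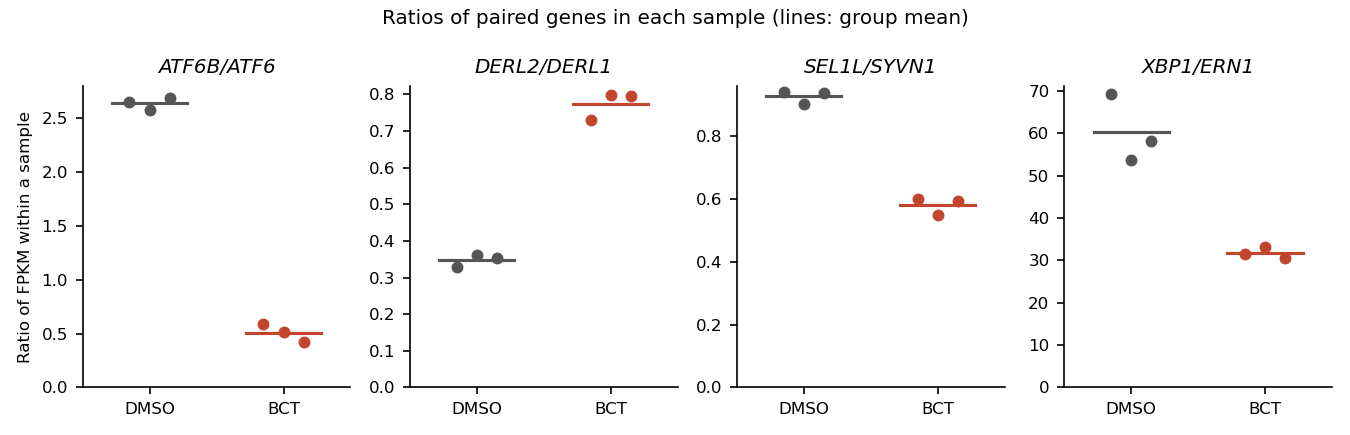
Ratio of the FPKM of paired genes within each sample (y axis, from 0 in each panel), with DMSO in grey, BCT in red and lines at the group means. The ATF6B/ATF6 ratio lies above 2.5 in each DMSO sample and below 0.6 in each BCT sample. No panel has overlapping groups, which also holds for 85.3% of single tested genes.

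The other genes of these pathways were described by lists written by hand, 90 genes in 11 lists, of which 83 were tested. Of these, 17 (beside 17.8% of all genes) were called lower and 3 (beside 13.9%) higher, and their median log2 fold change was -0.37 as deposited but 0.40 after rescaling to equal FPKM sums, where 10 were called lower and 22 higher. The targets of ATF6 outside ERAD, 8 chaperones and folding factors of the ER, were all called lower, with a median of -1.99. The falls were led by SDF2L1, from 127.0 ± 7.54 to 18.9 ± 4.18 FPKM (SD, n = 3 each), PDIA4, from 251.3 ± 15.8 to 40.2 ± 2.12 FPKM, and CRELD2, from 192.7 ± 7.30 to 47.5 ± 2.87 FPKM. All 8 also had negative values under each scaling tried, and 6 were still called lower with equal FPKM sums. XBP1 is known to drive some of the same genes, so the lists do not part the branches cleanly. Of 12 further genes known as XBP1 targets, 2 were called lower and 0 higher, with a median of -0.35 that turned to 0.41 with equal FPKM sums. They were SPCS3, a signal peptidase subunit, at -1.89 on the log2 scale, and PDIA6, a disulfide isomerase, at -1.74. DNAJB9, a much used readout of spliced XBP1, was at 12.1 ± 0.387 FPKM with DMSO and 17.5 ± 2.23 FPKM with BCT (log2 fold change 0.53, adjusted p = 0.00072), and passed the FDR only as deposited. With equal FPKM sums 2 genes of this list were called higher, and 1 without MIR6087. DNAJB9, which had the highest value of the list, was among them both times. It was chosen after its value was seen.

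Around the sensors, in the lists of IRE1 partners, ATF6 regulators, related factors and IRE1-degraded transcripts, 7 of 22 tested genes were called (31.8%), against 31.6% of all tested genes. Among 7 tested partners and regulators of IRE1, TMBIM6, a membrane protein known to restrain IRE1, fell from 821.4 ± 31 to 314.7 ± 27.6 FPKM (log2 fold change -1.39). No other gene of this list was called as deposited. With equal FPKM sums TMBIM6 was at -0.62 and not called, and 3 genes of the list were called higher. Leaving out MIR6087 gave 1 called higher, as did quantile normalization. RTCB, the ligase that joins the cut XBP1 mRNA, was at 54.5 ± 2.64 FPKM with DMSO and 93.1 ± 3.90 FPKM with BCT (0.77 on the log2 scale, short of the threshold as deposited and chosen after its value was seen). It had the highest value of this list and was among the genes called higher with equal FPKM sums, with or without MIR6087. Of 5 genes that process or regulate ATF6, NUCB1 (-1.77) and PDIA5 (-1.28) were called lower, and PDIA5 was at -0.52 and not called with equal FPKM sums. The protease genes MBTPS1 and MBTPS2, which cut ATF6 in the Golgi, were at -0.68 and 0.35 and were not called as deposited. With equal FPKM sums MBTPS1, the median of these 5 genes, turned to 0.085. MBTPS2, the highest of them, was then the 1 gene called higher. Both proteases too were singled out after their values were seen. Of the related membrane-bound factors, CREB3 rose from 22.8 ± 0.834 to 47.8 ± 1.68 FPKM and CREB3L4 fell from 98.0 ± 4.81 to 42.9 ± 7.88 FPKM. CREB3 was called under every scaling tried, while CREB3L4 went from -1.21 on the log2 scale to -0.44 with equal FPKM sums and -0.82 without MIR6087 and was called under neither. CREB3L2 was tested and not called, and CREB3L1 and CREB3L3 were too low to test. Of 7 tested transcripts known to be degraded by IRE1, PER1 rose (1.49, called under every scaling tried) and SCARA3 fell (-1.12, but -0.36 and -0.74 and not called under the same rescalings), with a median of -0.39 over the list that turned to 0.31 with equal FPKM sums.

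Within ERAD, the largest change was that of another derlin. DERL3 fell from 33.1, 27.9 and 36.9 FPKM in the DMSO samples to 3.87, 3.18 and 3.37 FPKM in the BCT samples, with a change of -3.19 on the log2 scale (standard error 0.11, adjusted p = 3.3e-07). With DMSO it was at about the level of DERL1, and with BCT every sample was below those of DERL1 and DERL2. Among the 11 tested partners of the channel and ligase, BCAP31, an ER export receptor, was the other gene called lower (-0.89), and 0 were called higher. BCAP31 was not called with equal FPKM sums (-0.12), without MIR6087 (-0.50) or with quantile normalization (-0.61), and with equal FPKM sums 1 gene of the list was called lower and 5 higher. In the lists of lectins, mannosidases and luminal factors (7 tested), of other ER ubiquitin ligases (8) and of ubiquitin-conjugating enzymes (5), limma called 0 genes in either direction. Over all tested genes, 17.8% were called lower, 13.9% were called higher and 82.1% passed the FDR. In these lists 5, 5 and 3 genes passed the FDR with lower values and 0, 2 and 1 with higher values, and the counts at an unadjusted p under 0.05 were identical. With equal FPKM sums these counts turned to 0, 0 and 0 lower and 3, 4 and 4 higher. Their medians were -0.45, -0.45 and -0.16 as deposited and 0.30, 0.32 and 0.60 with equal FPKM sums. The members with the largest changes were ERLEC1 (-0.68), RNF5 (-0.73) and UBE2G2 (-0.78), and with equal FPKM sums these lay at 0.087, 0.033 and -0.015. Of 10 genes of cytosolic extraction and deglycosylation, the deubiquitinase gene YOD1 rose (1.05), and the list had a median of 0.032 as deposited. With equal FPKM sums its median was 0.79, all 10 values were positive and 5 genes were called higher. VCP, the ATPase that pulls substrates out of the membrane, was at 129.8 ± 7.43 FPKM with DMSO and 78.5 ± 8.40 FPKM with BCT (-0.73 on the log2 scale, not called, and chosen after its value was seen). Its change thus reversed in sign with equal FPKM sums.

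**Figure D4:**
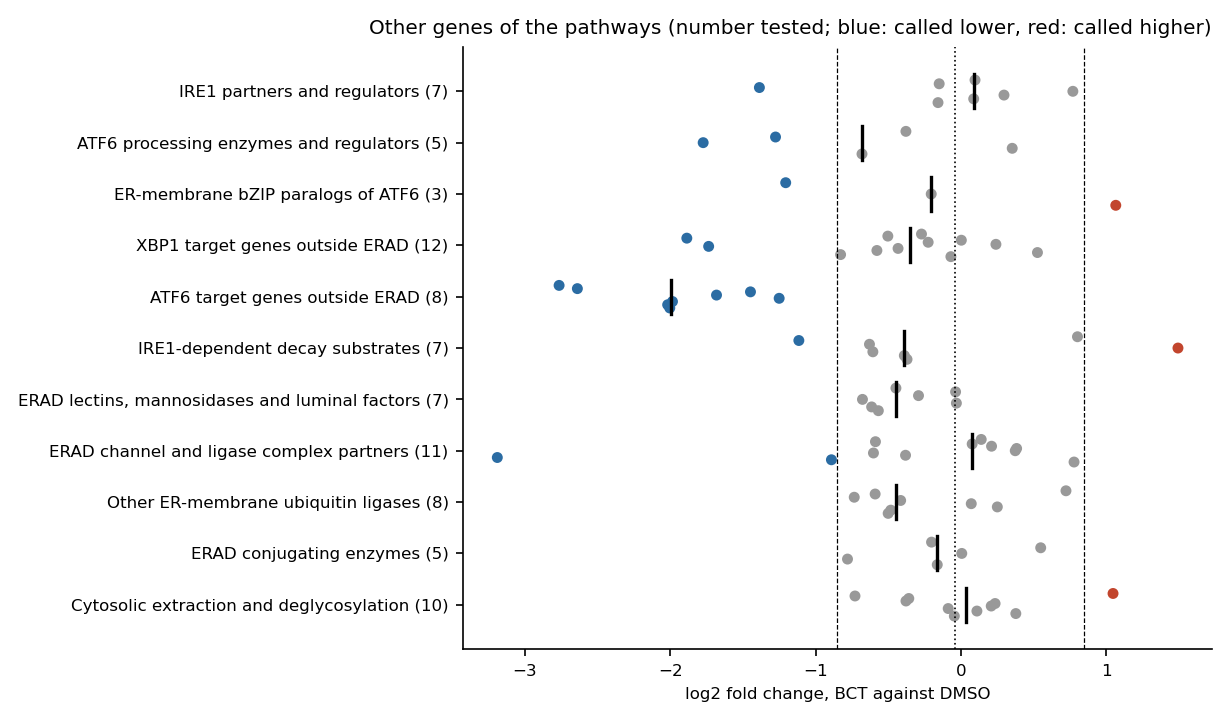
Log2 fold change, BCT against DMSO (x axis), of each tested gene in the 11 lists of other pathway genes, with black bars at the list medians, a dotted line at the median of all tested genes and dashed lines at the thresholds of -0.85 and 0.85. All 8 ATF6 targets lie to the left of the lower threshold, and the far left point among the ERAD partners is DERL3 at -3.19.

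The scaling of the libraries moved the values of all 10 genes. Over the genes tested, the median change was -0.038 (log2) as deposited, 0.72 once all samples were brought to an equal FPKM sum and 0.34 when MIR6087 was left out of that sum, an alternative added after the data were seen. It was -0.001 with median-of-ratios scaling and 0.029 with quantile normalization. ERN1 and ATF6 were called higher under all 5 scalings, with values of 1.24 to 1.98 and 1.02 to 1.78. ATF6B was called lower under each except the rescaling to the same sum, where it was at -0.59. SEL1L and EDEM1 were negative under all 5 scalings but lost their calls under both rescalings. With all genes they were at -0.29 and -0.14 and did not pass the FDR, nor did DERL1 at -0.022. Without MIR6087, SEL1L and EDEM1 were at -0.67 and -0.52. XBP1 and DERL2 were called higher with equal FPKM sums over all genes, at 1.13 and 1.12, and under no other scaling. Scaling each sample by a single factor shifts all genes and their median alike, apart from the small pseudocount. Relative to that median, only quantile normalization could thus move a gene. There SEL1L lay at -1.08, EDEM1 at -0.91 and ATF6B at -1.37, against -1.01, -0.86 and -1.31 as deposited.

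**Figure D5:**
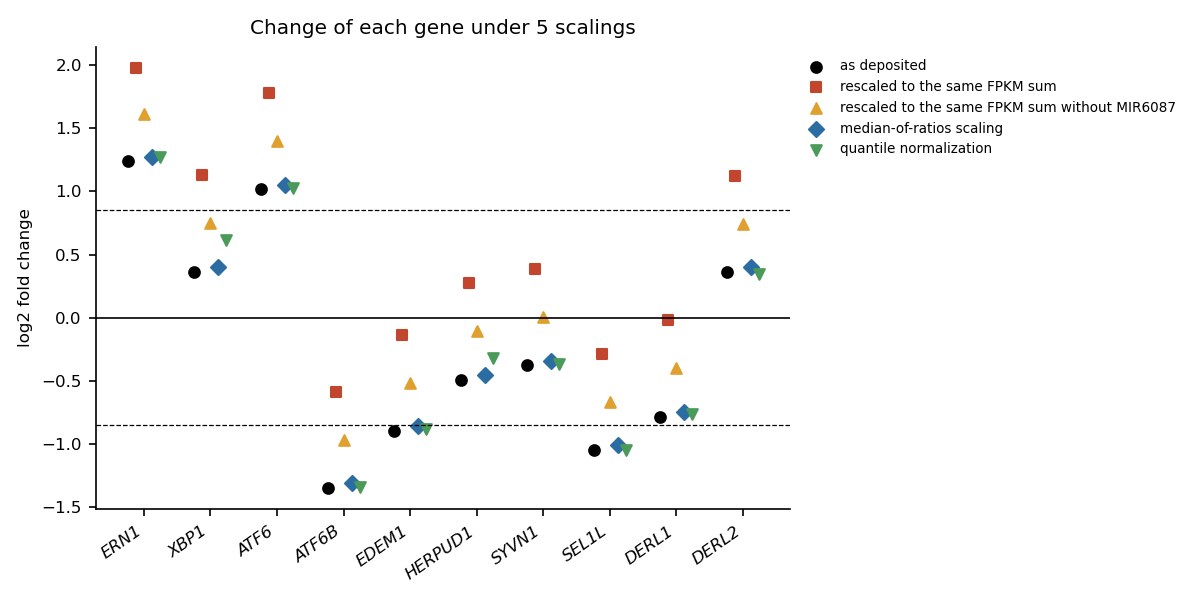
Log2 fold change of each gene under 5 scalings, with dashed lines at the thresholds of -0.85 and 0.85. ERN1 and ATF6 stay above the upper threshold throughout, and HERPUD1 and SYVN1 reach both sides of 0. ATF6B, EDEM1, SEL1L and DERL1 have no value above 0. With equal FPKM sums, however, SEL1L (-0.29), EDEM1 (-0.14) and DERL1 (-0.022) do not pass the FDR.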

How the data were processed

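Per the labels' processing notes and the study's methods, reads were trimmed with Trimmomatic 0.38, aligned to hg19 with HISAT2 and assembled with StringTie, and the authors deposited FPKM values, 1 table per sample. HTSeq and CASAVA are also listed, without a role, and the gene annotation is not given in the sources used here. The library kit does not mark strand. No further scaling was applied. limma 3.58.1 (R 4.3.3, eBayes, trend = TRUE) compared 3 BCT with 3 DMSO samples on log2(FPKM + 0.1), for the 12729 genes whose 6-sample mean reached 1 FPKM, with Benjamini-Hochberg adjustment over all of them. Other pseudocounts, filters, scalings, the replicate block and each sample left out were tried. The limma fit and its calls were tested on simulated data, with normal noise and no difference in library scaling between the groups. The scalings, ratios, lists and motif matches were not tested in that way. FPKM holds no counts, so no count test and no counting interval was possible, and the alternatives set for counts were not run.

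The members, lists and tests were chosen with earlier results of these data known. The lists were written from general knowledge. Named genes are the 10 members, the called genes of each list (at most 3, by size of change, or the largest change where none was called), and the 3 genes with the profile nearest to that of the member with the largest change. Outside this rule, DNAJB9, RTCB, MBTPS1, MBTPS2, VCP, HSPA5, CREB3L1 to CREB3L3, MIR6087, the neighbors of SYVN1 and single markers were named after their values were seen. Positions are those of the files with 1 added to the start. A marker of the luminal list is not reported here.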

Additional observations from a re-analysis of the deposited data

How the results depend on the processing

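Rescaling to the same FPKM sum gave 0 members called lower with limma (1 at an unadjusted p under 0.05), 4 called higher and 6 passing the FDR, with HERPUD1 at 0.28 and SYVN1 at 0.39 on the log2 scale, both turned positive. It called 6282 of all genes, 668 lower and 5614 higher, and 10 lower and 22 higher in the pathway lists. Lower genes were 56.2% of those called as deposited, 10.6% with this rescaling and 26.4% without MIR6087, an alternative chosen after seeing the data. That one gave 1 member called lower, SYVN1 at 0.0057, 1208 genes called lower and 3370 higher, and 9 list genes called higher. Quantile normalization called 5 list genes higher. Without a filter 2657 genes were called higher, and 1150 with a minimum mean of 5 FPKM; that filter removes ERN1, which left 1 member called higher. What made the FPKM sums differ between the groups was not tested.

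Over all alternatives, 168 of 179 values of single members kept their direction and their side of the threshold, 6 lost the call, 2 gained it and 3 reversed. This tally includes other filters, another FDR, other eBayes options and the replicate block, which left each fold change as it was. The reversed and gained values all came from rescaling to equal FPKM sums, with or without MIR6087. So did the lost calls, except that of EDEM1 with a pseudocount of 1. With each sample left out in turn, 3 members were called lower and 2 higher every time, EDEM1 lay at -0.96 to -0.85, and 3834 to 4420 genes were called. Same-numbered samples had correlations of 0.12, 0.033 and 0.034 between their deviations from the group means. Samples of unlike number had -0.12 to 0.074, and only DMSO replicate 2 with BCT replicate 3 was positive. Same-numbered values were thus mostly the higher ones, but all were small, and the numbers were not taken as pairs. A replicate block in the fit called 4033 genes against 4027, and the members' calls did not change. FPKM gave no absolute depth.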

Other observations

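BCT replicate 1 lay nearer to the DMSO mean than the other BCT samples in 6 of the 10 genes (ERN1, XBP1, ATF6, ATF6B, EDEM1 and DERL2). BCT replicate 2 was the nearest in HERPUD1 and SYVN1, and BCT replicate 3 in SEL1L and DERL1. Over all tested genes, BCT replicate 1 was the nearest in 69.1%. The 6 of 10 seen here is near that share, so the order sets none of these genes apart.

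The genes with the profile nearest to that of ATF6B, by Euclidean distance between log2 values centered on their own mean over the 6 samples, were CDH7 (distance 0.098), NCAPG2 (0.12) and ACAD9 (0.12). CDH7, a cadherin gene, averaged 3.80 FPKM with DMSO and 1.40 FPKM with BCT. NCAPG2, a condensin subunit gene, averaged 38.9 and 15.7 FPKM, and ACAD9, an acyl-CoA dehydrogenase gene, 24.8 and 10.2 FPKM.

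HSPA5, whose promoter in the RefSeq table also holds an ERSE, was at 306.9 ± 14.2 FPKM with DMSO and 129.1 ± 10.5 FPKM with BCT (SD, n = 3 each), while XBP1 with the same kind of element had higher values with BCT. HSPA5 was chosen after its value was seen.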
